A study of Mus musculus with 24 samples.

Results

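Foxd3, Fabp7, Erbb3, Cdh19, Sox10 and Gfra3 are 6 genes known from Schwann cells and their glial precursors. They were taken by name, as a list, from a table of 53946 mouse genes, and all 6 were found there. The tissue was the ventral otocyst of the embryonic inner ear, which holds the cochlea, taken at embryonic day 14.5. Ribosome affinity purification of translated RNA (TRAP) recovers RNA bound to ribosomes that carry a tagged L10a protein, here L10a-eGFP made in the Fgf20-Cre lineage. There were 8 TRAP libraries from Fgf20-/- embryos (mut), 8 TRAP libraries from Fgf20+/- embryos (het), 4 pre-TRAP libraries from Fgf20-/- embryos and 4 pre-TRAP libraries from Fgf20+/- embryos. All were C57BL/6J x 129X1/SvJ, every library pooled 3 to 7 embryos, and experiment 2 and experiment 1 each supplied the same number of libraries to every group. No group was wild type: the het libraries lack 1 copy of Fgf20. The tag follows every cell that descends from Fgf20-Cre activity. Pre-TRAP is taken to mean RNA that had not yet been purified, but the labels describe its extraction in the same words as for TRAP.

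Schwann cells derive from the neural crest and accompany the axons of the spiral ganglion into the cochlea. SOX10 is the transcription factor that the lineage needs throughout, and FOXD3 acts in crest cells and early glial precursors. ERBB3 is the receptor through which glia receive neuregulin from axons, GFRA3 is the co-receptor for artemin and signals through RET, CDH19 is a cadherin typical of Schwann cell precursors, and FABP7 is a fatty acid carrier of immature glia. Not all of them are restricted to glia. Sox10 is also made in otic epithelium and in melanoblasts, Fabp7 also in supporting cells of the cochlea, Erbb3 also in many epithelia and Gfra3 also in sensory and sympathetic neurons.

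Each library held 30745166 to 53374796 counts in total. The targeted gene, Fgf20, averaged 2.24 ± 0.729 CPM (counts scaled to library size) in TRAP mut against 4.19 ± 0.979 CPM in TRAP het libraries (SD, n = 8 each), and 0.236 ± 0.069 against 0.886 ± 0.584 CPM in pre-TRAP mut and pre-TRAP het libraries (SD, n = 4 each). Its log2 fold change, mut over het, was -0.94 ± 0.22 in TRAP and -1.75 ± 0.45 in pre-TRAP libraries (SE, edgeR adjusted p = 0.188 and 0.837). The reads counted may lie outside the deleted part, which the sources used here do not describe. The summed level of 14 mesenchyme markers was 578 to 1305 CPM in TRAP libraries 3, 4, 5 and 6 and 294 to 518 CPM in the other 12 TRAP libraries. Library 4, at 578 CPM, lay near the highest of those 12 and library 6, at 1305 CPM, within the pre-TRAP range of 1050 to 1538 CPM. The edgeR fits and the correlations that include TRAP libraries were also computed without these 4, but the ratios between members were not. Neuron markers summed to 3986 to 7199 CPM in TRAP and 880 to 1262 CPM in pre-TRAP libraries. In bulk RNA, fewer cells of a type and less RNA per cell cannot be told apart.

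The 6 genes did not move together between TRAP and pre-TRAP RNA. Sox10 was 2.30-fold and Erbb3 1.46-fold higher in TRAP libraries by group means, while Fabp7 was 7.75-fold, Cdh19 5.07-fold, Foxd3 3.88-fold and Gfra3 2.52-fold lower. In edgeR's quasi-likelihood test with Benjamini-Hochberg adjustment, at an adjusted p under 0.05, 2 of the 6 were higher and 4 lower. Of all 24242 genes tested, 27.9% were called higher and 31.2% lower, so being called is common in this comparison. Foxd3, Cdh19 and Gfra3 reached the minimum count because of pre-TRAP libraries and were under it among TRAP libraries alone, so their calls could only be downward.

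**Figure D1:**
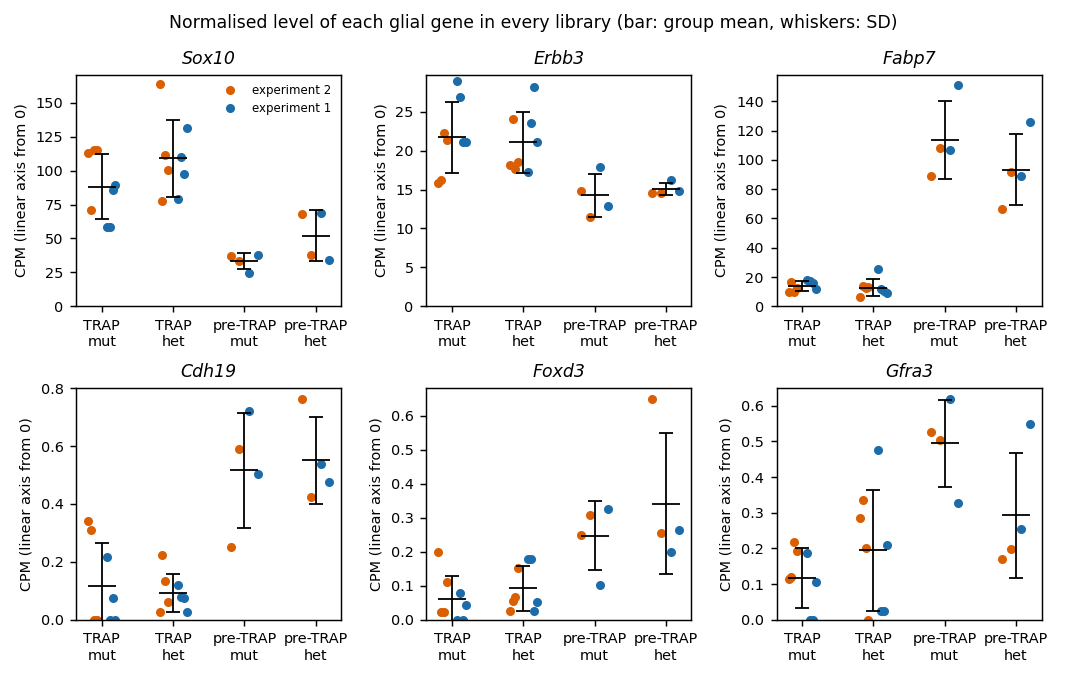
Normalised level (CPM, linear axes from 0) of each of the 6 genes in every library, by group, with the group mean as a bar and the SD as whiskers, and colours for the 2 experiments. Sox10 and Erbb3 lie higher in TRAP libraries, Fabp7 lies between 6.07 and 25.4 CPM in TRAP libraries and between 66.7 and 151 CPM in pre-TRAP libraries, and Cdh19, Foxd3 and Gfra3 stay under 1 CPM everywhere.

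Sox10, on chromosome 15, had 58.3, 87.4 and 115 CPM (lowest, median, highest) in the 8 TRAP mut libraries and 77.7, 105 and 164 CPM in the 8 TRAP het libraries. The pre-TRAP mut libraries had 37.1, 24.9, 37.9 and 33.7 CPM, and the pre-TRAP het libraries 68.0, 69.0, 34.2 and 37.5 CPM. Within each genotype every TRAP library was above every pre-TRAP library. Across genotypes the ranges met, since 2 TRAP mut libraries were under the pair of pre-TRAP het libraries near 69 CPM. The means were 98.6 ± 27.6 CPM in TRAP (SD, n = 16) and 42.8 ± 16.4 CPM in pre-TRAP libraries (SD, n = 8). The log2 fold change was 1.22 ± 0.16 (SE, edgeR adjusted p = 3.16e-07). Groups that do not overlap were found upward for 12.4% of genes between TRAP mut and pre-TRAP mut, and for 8.49% between TRAP het and pre-TRAP het.

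Foxd3, on chromosome 4, was near the detection limit. TRAP mut libraries held 0, 1.5 and 7 counts (lowest, median, highest) and TRAP het libraries 1, 2.5 and 7 counts. Pre-TRAP mut libraries held 9, 5, 11 and 11 counts, and pre-TRAP het libraries 23, 7, 11 and 9 counts. In sum there were 45 counts in 16 TRAP libraries against 86 counts in 8 pre-TRAP libraries. The mean was 0.0757 ± 0.0673 CPM in TRAP and 0.294 ± 0.159 CPM in pre-TRAP libraries, and the log2 fold change was -1.91 ± 0.44 (SE, edgeR adjusted p = 0.0005). All 16 TRAP libraries were below the pre-TRAP mean, and the ranges overlapped among mut libraries but not among het libraries, as for 13% of genes. The 2 TRAP mut libraries with no count allow up to 3 counts, or 0.0933 and 0.111 CPM.

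Erbb3, on chromosome 10, had 15.8, 21.3 and 28.9 CPM (lowest, median, highest) in TRAP mut and 17.2, 19.8 and 28.2 CPM in TRAP het libraries. It had 14.8, 17.9, 12.9 and 11.5 CPM in pre-TRAP mut and 14.6, 16.2, 14.9 and 14.5 CPM in pre-TRAP het libraries. Of the 16 TRAP libraries, 12 were above all 8 pre-TRAP libraries, and all 16 were above the pre-TRAP mean. The means were 21.4 ± 4.12 CPM in TRAP (SD, n = 16) and 14.7 ± 1.93 CPM in pre-TRAP libraries (SD, n = 8). The log2 fold change of 0.54 ± 0.11 (SE, edgeR adjusted p = 0.000116) was the smallest of the 6 in size.

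Gfra3, on chromosome 18, was also sparse. TRAP mut libraries held 0, 5 and 10 counts (lowest, median, highest) and TRAP het libraries 0, 8.5 and 16 counts. Pre-TRAP mut libraries held 19, 30, 11 and 18 counts, and pre-TRAP het libraries 6, 9, 23 and 7 counts. The 95 counts in 16 TRAP libraries stood against 123 counts in 8 pre-TRAP libraries, and the log2 fold change was -1.34 ± 0.47 (SE, edgeR adjusted p = 0.0172). The fall rested mostly on mut libraries: it was -2.08 ± 0.55 (adjusted p = 0.00454) in them alone, with no overlap (as for 14% of genes), and -0.56 ± 0.72 (adjusted p = 0.57) in het libraries alone. The difference between the genotypes in this respect was -1.41 ± 0.96 and did not pass the test (edgeR adjusted p = 1.0). Without pre-TRAP het library 21, which held the 23 counts, the call was lost (-1.06, adjusted p = 0.0764), and likewise in experiment 2 alone (-0.68, adjusted p = 0.341). The 3 TRAP libraries without a count allow up to 0.0775 to 0.111 CPM.

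Cdh19, on chromosome 1, had no count in 4 of the 8 TRAP mut libraries. That group held 0, 1 and 13 counts (lowest, median, highest) and TRAP het libraries 1, 3 and 8 counts, against 9, 35, 17 and 21 counts in pre-TRAP mut and 27, 19, 20 and 15 counts in pre-TRAP het libraries. In sum 62 counts in 16 TRAP libraries stood against 163 counts in 8 pre-TRAP libraries. TRAP mut libraries 2 and 4 held 12 and 13 of the 34 counts of that group. The log2 fold change was -2.39 ± 0.50 (SE, edgeR adjusted p = 0.000171), and 14 of 16 TRAP libraries were below all pre-TRAP libraries. In experiment 2 alone the call was lost (-1.82, adjusted p = 0.0554). The counts of 0 allow up to 0.0642 to 0.0825 CPM.

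Fabp7, on chromosome 10, showed the clearest separation. It had 9.88, 14.3 and 18.0 CPM (lowest, median, highest) in TRAP mut and 6.07, 12.0 and 25.4 CPM in TRAP het libraries. Pre-TRAP mut libraries had 88.8, 107, 151 and 108 CPM, and pre-TRAP het libraries 66.7, 89.0, 126 and 91.9 CPM. No TRAP library reached the lowest pre-TRAP library, a separation found downward for 8.32% of genes. The TRAP mean of 13.4 ± 4.58 CPM (SD, n = 16) was 12.9% of the pre-TRAP mean of 104 ± 25.9 CPM (SD, n = 8). The log2 fold change was -2.94 ± 0.16 (SE, edgeR adjusted p = 1.52e-14).

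The promoters of Foxd3 and Fabp7 are shown because these are the only members in the RefSeq promoter table (build GRCm38.p6). Each runs from 250 bases before to 50 after the start of the gene, 5′ to 3′ on the plus strand, with CpG dinucleotides in capitals. Neither held the SOX motifs searched, ACAAAG and ACAATG, on either strand. Of all 32851 promoters in the table, 18.7% and 12.6% hold them and 28.6% hold either, so lacking both is usual. The absence says only that these letters are not in this window. The Foxd3 promoter held 25 CpG dinucleotides, a number that 18.4% of promoters reach, and the Fabp7 promoter 6, against a median of 7.
Foxd3, chr4:99656049-99656348: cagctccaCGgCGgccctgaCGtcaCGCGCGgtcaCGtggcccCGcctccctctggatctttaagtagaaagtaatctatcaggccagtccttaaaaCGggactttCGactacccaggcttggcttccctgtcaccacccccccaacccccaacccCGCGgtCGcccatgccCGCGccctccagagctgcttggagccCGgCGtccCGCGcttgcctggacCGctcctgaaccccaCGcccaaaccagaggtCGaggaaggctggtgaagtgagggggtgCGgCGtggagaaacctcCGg
Fabp7, chr10:57784673-57784972: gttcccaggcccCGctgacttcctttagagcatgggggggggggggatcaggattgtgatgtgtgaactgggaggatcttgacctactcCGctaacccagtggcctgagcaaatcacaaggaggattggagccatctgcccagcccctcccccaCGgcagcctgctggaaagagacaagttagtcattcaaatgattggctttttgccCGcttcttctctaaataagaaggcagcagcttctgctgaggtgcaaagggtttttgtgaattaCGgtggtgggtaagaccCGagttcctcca

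Ratios of 2 genes within a library were used to ask whether the members changed unequally. All 15 pairs were compared by a two-sided exact permutation test over libraries on log2(CPM + 0.5). For 2 genes well above 0.5 CPM, such a ratio depends little on scaling between libraries. For Foxd3, Cdh19 and Gfra3, all under 1 CPM, the added 0.5 keeps the scaling from cancelling and understates changes. With adjustment over the 15 pairs, 13 passed. How often pairs of other genes pass, or separate fully, was not computed. In this comparison edgeR called 59.1% of all genes tested in either direction, so unequal pairs are likely to be common. Most of the 13 pairs include Foxd3, Cdh19 or Gfra3, which were under the minimum count among TRAP libraries alone. Only the pairs among Sox10, Erbb3 and Fabp7 are free of that limit, and each of them passed. Fabp7 over Erbb3 differed by -3.46 (exact permutation adjusted p = 2.91e-06). Fabp7 over Sox10 was -2.86 ± 0.83 in TRAP and 1.31 ± 0.77 in pre-TRAP libraries (SD, log2 scale, n = 16 and 8), a difference of -4.16 (exact permutation p = 1.36e-06, the smallest the design allows, adjusted p = 2.91e-06). Cdh19 over Sox10 differed by -1.999 and Foxd3 over Sox10 by -1.67, each with all 16 TRAP libraries below all pre-TRAP libraries. Even Erbb3 over Sox10, 2 genes that were both higher in TRAP, differed by -0.71 (exact permutation adjusted p = 0.00986), with Sox10 rising more. Foxd3 over Gfra3 differed by -0.0017 (exact permutation adjusted p = 0.992) and Cdh19 over Gfra3 by -0.33 (exact permutation adjusted p = 0.0569). Foxd3 over Cdh19 differed by 0.33 (exact permutation adjusted p = 0.0183), a call that was lost without pre-TRAP mut library 20 (0.24, exact permutation adjusted p = 0.0646). Cdh19 over Gfra3 passed instead without any one of libraries 2, 4, 13, 18 and 21 (-0.35 to -0.42, exact permutation adjusted p = 0.0153 to 0.048). The pseudocount mattered too: at 0.1 CPM Foxd3 over Cdh19 was 0.59 and did not pass (exact permutation adjusted p = 0.107), and at 1 CPM Cdh19 over Gfra3 was -0.20 and passed (exact permutation adjusted p = 0.0487).

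**Figure D2:**
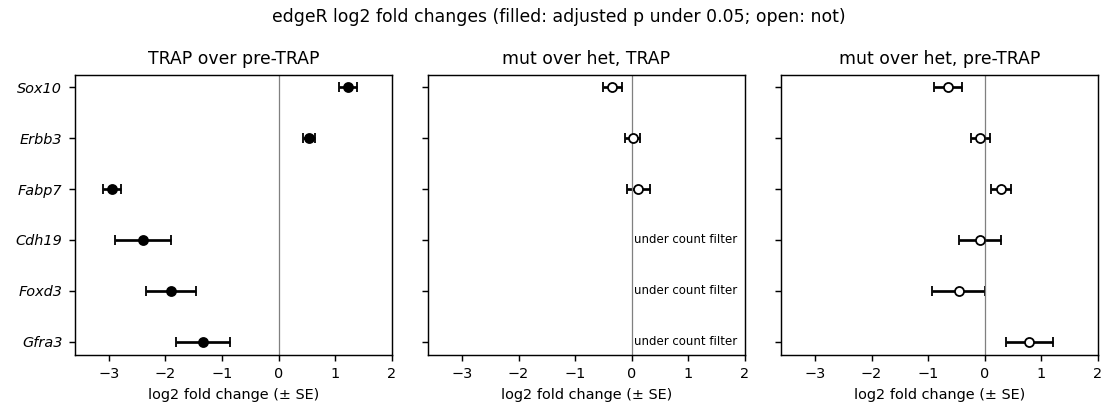
edgeR log2 fold changes (± SE) of the 6 genes in TRAP over pre-TRAP, mut over het in TRAP and mut over het in pre-TRAP libraries, with filled points where the adjusted p was under 0.05. All 6 points are filled in the first panel, 2 to the right of 0 and 4 to the left, and none is filled in the genotype panels.

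The label was checked against 6 markers of the Schwann cell lineage, 4 of them members. Foxd3, Cdh19 and Dhh were lower in TRAP libraries, and Sox10, Erbb3 and Ngfr were higher. Dhh, a hedgehog ligand that Schwann cells make, averaged 0.117 ± 0.0883 CPM in TRAP and 0.261 ± 0.16 CPM in pre-TRAP libraries (log2 fold change -1.20 ± 0.41, edgeR adjusted p = 0.0136). Ngfr, the p75 neurotrophin receptor, which neurons also make, averaged 18.0 ± 4.28 CPM in TRAP and 6.81 ± 2.03 CPM in pre-TRAP libraries (log2 fold change 1.42 ± 0.17, edgeR adjusted p = 4.33e-08). Foxd3, Cdh19 and Dhh were each under the minimum count among TRAP libraries alone, so they could be called in no other direction, and nothing is read from their opposition to the markers that were higher.

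Of 33 further genes of the Schwann cell lineage, 7 were higher and 19 lower in TRAP libraries by edgeR, beside 27.9% and 31.2% of all genes tested. Their median log2 fold change was -1.03, against -0.01 over all genes tested. That median includes 6 genes under the minimum count among TRAP libraries alone, and no median without them was taken. Among the 27 that were over the minimum count in TRAP and in pre-TRAP libraries alike, 7 were higher and 15 lower; 4 of the genes called lower reached it through pre-TRAP libraries only and could be called in no other direction. Those with the largest changes were Pmp22, a myelin protein, at 11.1 ± 4.98 CPM in TRAP and 80.0 ± 16.5 CPM in pre-TRAP libraries, and S100b, a calcium-binding protein, at 21.7 ± 5.2 and 125.9 ± 18.3 CPM in TRAP and pre-TRAP libraries. Sox8, a relative of Sox10, changed by -2.26 ± 0.16 and Ednrb, an endothelin receptor of crest cells, by -1.90 ± 0.20 (log2, SE). Some of these are made by other cells of the otocyst too.

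Among 15 tested genes of the neuregulin and ErbB pathway, 6 were higher and 6 lower in TRAP libraries. Over all genes tested, 27.9% were called higher and 31.2% lower, so such counts are not particular to the pathway. Nrg1, the neuregulin that axons present to glia, averaged 51.4 ± 13.3 CPM in TRAP and 9.62 ± 1.68 CPM in pre-TRAP libraries (log2 fold change 2.39 ± 0.12, edgeR adjusted p = 8.19e-15). Nrg3 changed by 2.59 ± 0.23 and Nrg4 by 1.71 ± 0.19, while Shc1, an adaptor of receptor kinases, changed by -1.38 ± 0.10 (log2, SE). Erbb2, the kinase partner that ERBB3 needs, was chosen after its values were seen: it averaged 7.26 ± 1.37 CPM in TRAP and 13.0 ± 2.24 CPM in pre-TRAP libraries (log2 fold change -0.84 ± 0.11, edgeR adjusted p = 3.21e-07), opposite in sign to Erbb3.

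Of 9 tested genes of the GDNF family system, 4 were higher and 3 lower, beside 27.9% and 31.2% of all genes tested. Gfra1, the co-receptor for GDNF, changed by 0.93 ± 0.14, Gfra4 by -1.09 ± 0.15 and Ncam1, an adhesion protein that also binds GDNF, by -0.55 ± 0.12 (log2, SE). The direct partners of GFRA3 are too sparse for the rule on named genes and were chosen after their values were seen. Artn, its ligand artemin, averaged 0.779 ± 0.466 CPM in TRAP and 0.140 ± 0.0904 CPM in pre-TRAP libraries (log2 fold change 2.50 ± 0.31, edgeR adjusted p = 8.79e-08). Artn was under the minimum count among pre-TRAP libraries alone, so it could only be called higher, as could 1 other of the 4 genes called higher. Ret averaged 0.546 ± 0.308 CPM in TRAP and 0.357 ± 0.202 CPM in pre-TRAP libraries and did not pass the test (edgeR adjusted p = 0.195).

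Of 15 tested SoxE and neural crest regulators, 3 were higher and 11 lower, beside 27.9% and 31.2% of all genes tested. Among the 13 that were over the minimum count in TRAP and in pre-TRAP libraries alike, 3 were higher and 10 lower. The 1 other gene called lower was under it among TRAP libraries alone and could only be called lower. Sox2, which is a gene of the prosensory epithelium as well as of glial precursors, changed by 2.70 ± 0.17 and Sox21 by 2.80 ± 0.20, while Snai2 changed by -3.22 ± 0.22 and Ets1 by -2.61 ± 0.26 (log2, SE). Among relatives of Fabp7, Fabp5 averaged 378 ± 83.3 CPM in TRAP and 103 ± 14.6 CPM in pre-TRAP libraries (log2 fold change 1.87 ± 0.13, edgeR adjusted p = 4.80e-12), and Fabp3 changed by 1.67 ± 0.13. Fabp7 and Fabp5 thus changed in opposite directions.

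Marker lists of the other cell types in the dissected tissue were set beside the 6 genes. Of all genes tested, 27.9% were called higher and 31.2% lower. Otic epithelium had 11 of 15 markers higher and 3 lower (median log2 fold change 1.14), and neurons had 15 of 16 higher and 1 lower (median 2.56). Mesenchyme had 12 of 14 lower, endothelium 10 of 10, erythroid cells 10 of 10 and macrophages 9 of 10, with medians of -2.13, -2.29, -3.27 and -2.79. Skeletal muscle had 2 of 9 tested markers higher and 5 lower. In each of the macrophage and muscle lists, 1 marker called lower was under the minimum count among TRAP libraries alone and could only be called lower. Of those over it in both kinds of library, 8 of 9 macrophage markers were lower. Of 8 such muscle markers, 2 were higher and 4 lower. All 9 melanocyte markers were lower, with a median of -2.50, but 5 of them were under the minimum count among TRAP libraries alone and could only be called lower. The median includes these 5. Of the other melanocyte markers, 4 of 4 were lower, and Dct, an enzyme of pigment synthesis, averaged 24.5 ± 25.7 CPM in TRAP and 190 ± 197 CPM in pre-TRAP libraries. Of 9 tested markers of central glia, 4 were higher and 5 lower, and of the 5 over the minimum count in both kinds of library, 1 was higher and 4 lower. Sox10 lay beside the otic epithelium in direction and size, and Fabp7 beside the lists that were lower. The part of these cell types in the changes of the 6 genes was not tested.

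**Figure D3:**
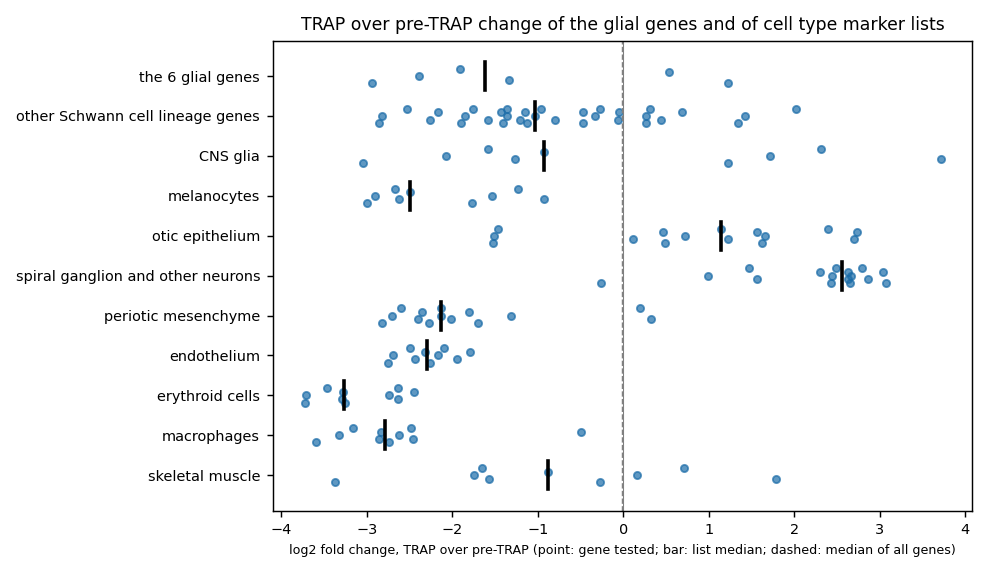
Log2 fold change, TRAP over pre-TRAP, of each tested gene (points) in the 6 glial genes and in the marker lists, with list medians as bars and the median of all genes as a dashed line. Neurons and otic epithelium lie mostly to the right of 0, mesenchyme, endothelium, erythroid cells, macrophages and melanocytes mostly to the left, and the glial genes lie on both sides.

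None of the 6 genes differed past the threshold between mut and het TRAP libraries. Only Sox10, Erbb3 and Fabp7 had enough counts to be tested there. edgeR called 0 of these 3 and DESeq2 likewise 0, while edgeR called 0.0742% of 21577 genes in either direction. An unadjusted p under 0.05 was found for 0 of the 3 and for 3.77% of all genes. Sox10 averaged 88.2 ± 24.2 CPM in TRAP mut and 109 ± 28.3 CPM in TRAP het libraries (SD, n = 8 each), a log2 fold change of -0.34 ± 0.17 (edgeR unadjusted p = 0.0528, adjusted p = 1.0). The approximate 95% interval of that change was -0.67 to -0.02. Erbb3 changed by 0.02 ± 0.13, with an interval of -0.24 to 0.27, and Fabp7 by 0.12 ± 0.21, with an interval of -0.29 to 0.53. With no filter on low counts, Foxd3 was at -0.66 ± 0.71, Cdh19 at 0.24 ± 0.71 and Gfra3 at -0.75 ± 0.61, none past the threshold in edgeR (adjusted p = 0.90, 0.997 and 0.825).

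One alternative changed this. Neuron markers summed to 5345 to 6935 CPM in TRAP mut and 3986 to 7199 CPM in TRAP het libraries, and with the neuron level as a covariate Sox10 was called lower in mut libraries, at -0.63 ± 0.14 (edgeR adjusted p = 0.0283). That fit called 95 genes higher and 274 lower in all, so more genes passed in general. The part of neuron content in the Sox10 difference was not tested further.

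In pre-TRAP libraries all 6 genes were tested between the genotypes, and 0 were called by edgeR or by DESeq2, where 0.00455% of 21954 genes were called by edgeR and 4.77% had an unadjusted p under 0.05. Sox10 was the 1 member with an unadjusted p under 0.05. It averaged 33.4 ± 5.92 CPM in pre-TRAP mut and 52.2 ± 18.9 CPM in pre-TRAP het libraries (SD, n = 4 each), a log2 fold change of -0.65 ± 0.24 (edgeR unadjusted p = 0.019, adjusted p = 0.837). The het libraries were spread: 1 in each experiment was near 69 CPM, while the other het libraries, at 34.2 and 37.5 CPM, lay within the range of the mut libraries. Gfra3 was at 0.79 ± 0.42, Fabp7 at 0.29 ± 0.18, Foxd3 at -0.46 ± 0.47, Cdh19 at -0.09 ± 0.37 and Erbb3 at -0.08 ± 0.17 (log2, SE), with intervals that all include 0. Of 180 genes in the other lists, 154 were tested between mut and het in TRAP and 162 in pre-TRAP libraries. Both edgeR and DESeq2 called 0 of them, with 13 and 15 at an unadjusted edgeR p under 0.05. In the test of whether the genotype difference itself differed between TRAP and pre-TRAP, edgeR and DESeq2 called 0 of the 24242 genes, 302 genes (1.25%) had an unadjusted p under 0.05, and 0 of the 6 members did.

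The 2 experiments differed in many genes but in none of these by the test. Between experiment 2 and experiment 1, edgeR called 23% of genes in TRAP and 14.7% in pre-TRAP libraries, 0 of the 3 tested members in TRAP and 0 of 6 in pre-TRAP, as did DESeq2, with 1 member at an unadjusted edgeR p under 0.05 in each. Sox10 was 0.35 ± 0.17 higher on the log2 scale in experiment 2 in TRAP libraries (edgeR unadjusted p = 0.048, adjusted p = 0.14) and was called without TRAP het library 3 (0.43, adjusted p = 0.0493). In pre-TRAP libraries Sox10 was at 0.11 ± 0.24 and Fabp7 at -0.41 ± 0.18 (edgeR unadjusted p = 0.038, adjusted p = 0.145). Melanocyte markers, whose cells also make Sox10, summed to 297 to 478 CPM in experiment 2 and 22.6 to 32.1 CPM in experiment 1 of pre-TRAP libraries, and to 32.3 to 71.4 and 3.40 to 9.36 CPM in experiment 2 and experiment 1 of TRAP libraries. These sums are mostly Dct, which held 69276 counts over all libraries, against 2365 for Kit, the next of these markers. The markers did not move as a set. In pre-TRAP libraries, 1 of the 8 tested had a positive and 7 a negative log2 fold change, experiment 2 over experiment 1. Their median was -0.29, with 1 called higher and 1 lower by edgeR. In TRAP libraries, 2 of 4 tested were positive and 2 negative. The part of melanocytes in the Sox10 levels was not tested.

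Whether the 6 genes rise and fall together was examined across libraries of 1 kind, over 15 pairs in each kind. In the 16 TRAP libraries 1 pair passed, with an inverse relation. Sox10 and Fabp7 had a Pearson r of -0.836 (permutation p = 7e-05, adjusted p = 0.00105) and a Spearman rho of -0.847 (permutation p = 0.00011, adjusted p = 0.00165). Without the 2 libraries farthest from the median the r was -0.879, within group and experiment -0.833, in experiment 2 alone -0.912 and in experiment 1 alone -0.738. In experiment 1 alone, with 8 libraries, the exact permutation p of 0.0397 did not pass adjustment (adjusted p = 0.595). Without the 4 mesenchyme-rich libraries, which was tried after seeing the data, r was -0.872 (permutation adjusted p = 0.00788). In those 4 libraries Fabp7 had 13.9 to 25.4 CPM, against 6.07 to 17.3 CPM in the other 12. Sox10 had 58.7 to 79.1 CPM (median 74.4) in the 4 and 58.3 to 164 CPM (median 111) in the other 12. The part of mesenchyme RNA in this relation was not tested. Over the 16 TRAP libraries, 2.15% of 11250 genes had an r of -0.8 or lower with Sox10 and 0.658% with Fabp7. An r of 0.8 or higher was found for 3.81% with Sox10 and 0.373% with Fabp7. Levels in a library are shares of 1 total, so these points share depth and composition.

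No other pair passed in TRAP libraries: Foxd3, Erbb3 and Cdh19 had r between -0.39 and 0.14 with each other, and Sox10 and Erbb3 had an r of -0.389. Foxd3 and Cdh19 held at most 7 and 13 counts in TRAP libraries, too few for a weak r to show a lack of relation. In the 8 pre-TRAP libraries 0 of 15 pairs passed, with 1 pair at an unadjusted p under 0.05. There, the strongest relation was Sox10 with Gfra3, at r = -0.774 (exact permutation p = 0.0153, adjusted p = 0.23), and Sox10 with Fabp7 had an r of -0.602 (exact permutation adjusted p = 0.497). Without the 4 mesenchyme-rich libraries, Sox10 with Gfra3 and Fabp7 with Gfra3 also passed in TRAP libraries, at r = 0.756 and r = -0.726 (permutation adjusted p = 0.00788 and 0.0222). Gfra3 held at most 11 counts in these 12 libraries, so these last relations rest on sparse counts and are no finding.

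**Figure D4:**
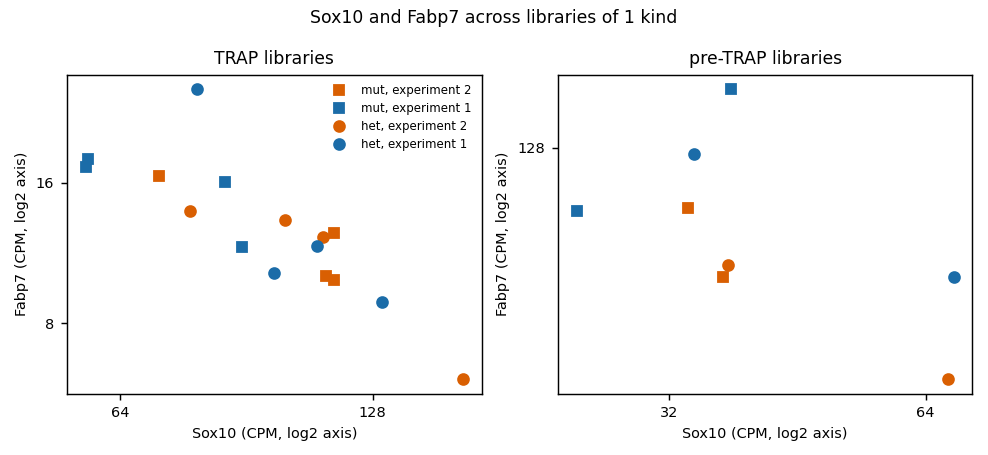
Sox10 against Fabp7 (CPM, log2 axes) in each TRAP library (left) and each pre-TRAP library (right), with squares for mut, circles for het and colours for the 2 experiments. Among TRAP libraries, the one with the most Sox10 (164 CPM) had the least Fabp7 (6.07 CPM), and r was -0.836.

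By likeness of pattern in TRAP libraries, the genes nearest to Sox10 were Gnai2, a G protein subunit, at r = 0.952, then Samd1, Mllt1, Rnd2 and Celsr1, at r = 0.946, 0.943, 0.939 and 0.936, over 16 libraries. None of these was among the 33 further Schwann cell lineage genes listed. With 11022 genes ranked, that is usual for any so few genes, and nothing is read from it. The highest mean r with Foxd3, Erbb3 and Cdh19 was 0.376, for Nars2, in TRAP libraries and 0.522, for Inka2, in the 8 pre-TRAP libraries. The 3 had r of -0.393 to 0.136 with each other in TRAP and -0.466 to 0.245 in pre-TRAP libraries. No gene could therefore have a high mean r with all 3, and nothing is read from these low values. Foxd3 and Cdh19 also held at most 7 and 13 counts in TRAP libraries. The 8 nearest in pre-TRAP were Inka2, Kif14, Ermp1, Ptges2, Crim1, Ptprz1, Enpp1 and Slc7a2. Of these only Ptprz1, a receptor phosphatase of glial cells, at 0.502, was among the Schwann cell lineage genes listed. Nothing is read from its place either. Nearest to Fabp7, by a ranking added after the data were seen, was Ctsl, a lysosomal protease, at r = 0.936. These correlations carry no test.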

How the data were processed

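The authors deposited raw counts, whole numbers per Ensembl gene for each of 24 libraries, not normalised. STAR, DESeq2 and the build GRCm38.p5 appear in the submitters' processing notes. Tool versions, counting tool, annotation and strand setting were not given in the sources used here, so reads of overlapping or antisense genes cannot be told apart. Per the labels, a Picopure kit served for RNA and a Clontech SMARTer kit for libraries. Symbols were matched for 53274 of 53946 genes, and 10068 genes had no count.

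The 68 pairs of libraries within a group differed by 26.3 to 260.6 in chi-square per degree of freedom, so none was a copy of another. Each library is 1 pool of embryos.

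Fits used edgeR 4.0.16 in R 4.3.3, with TMM factors of 0.801 to 1.142, filterByExpr at a minimum count of 10, quasi-likelihood F tests, the experiment as covariate and Benjamini-Hochberg adjustment over all genes tested, called under 0.05. CPM are normalised with these factors. Alternatives were DESeq2 1.42.0, limma 3.58.1 voom, another scaling, no filter, other covariates, subsets and leaving out each library. Ratios and correlations used permutation tests over libraries on log2(CPM + 0.5). Intervals are 1.96 standard errors each way, which is narrower than the F tests imply, and limits from a count of 0 cover counting error only. The fits were tested on simulated data. The members and the lists were chosen with earlier results of these data known. Beside the 6 members, up to 4 called genes of a list were named, those with the largest changes and a mean of at least 2 CPM. The genes most like a member were ranked by Pearson r. Some markers of the lineage are not reported here.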

Additional observations from a re-analysis of the deposited data

Results flagged for a closer look

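In the 24 groups of values checked (6 genes in 4 groups), 2 held a library far from the others, and chance flags about 1 in 20 groups. Foxd3 was at 0.649 CPM, from 23 counts, in pre-TRAP het library 17, against 0.263 CPM in the nearest of the other 3 libraries of that group. Fabp7 was at 25.4 CPM in TRAP het library 5, against 13.9 CPM in the nearest of the other 7, and library 5 is also among the 4 TRAP libraries high in mesenchyme markers, with a sum of 1008 CPM. The part of mesenchyme RNA in that value was not tested.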

How the results depend on the processing

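Of 1537 comparisons of a value with its alternative, 1514 were labelled the same, 7 weakened, 9 strengthened, 6 counts moved and 1 reversed. The same means that a value kept its side of the threshold, or that a count stayed equal or close. A value that did not pass could change sign and still be labelled the same. The log2 fold change of Erbb3 between mut and het TRAP libraries, for example, ran from -0.0544 to 0.1199. The number of members lower in TRAP libraries, 4, became 2 in experiment 2 alone and 2 in het libraries alone, where Foxd3 was under the filter and fewer samples entered. Leaving out each library in turn gave 3 to 4. The number higher stayed at 2. Members lower in mut TRAP libraries numbered 1, Sox10, with the neuron level as a covariate and 0 otherwise. Members higher in experiment 2 of TRAP libraries numbered 0 to 1 when each library was left out. Correlated pairs in TRAP libraries, 1 of 15, became 0 in experiment 1 alone and 3 without the 4 mesenchyme-rich libraries (tried after seeing the data), where Fabp7 with Gfra3 turned to r = -0.726 from a value of 0.0442 that had not passed. The cause of these shifts was not tested. The unequal ratios between members passed for 12 to 14 of 15 pairs under their alternatives, most of them pairs with Foxd3, Cdh19 or Gfra3. Correlations within an experiment are not given for pre-TRAP libraries, which number 4 in each, too few for the test. No paired analysis was possible because every library has its own number, and the labels link no library of one group to a library of another. Depth limits Foxd3, Cdh19 and Gfra3, which held 0 to 16 counts in each TRAP library.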
